A study of Homo sapiens with 24 samples.

Results

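The genes described here are those of the integrated stress response and the unfolded protein response. They were chosen by name, with earlier results of these data known. The list held 39 genes, namely known ATF4 targets, genes for the synthesis and transport of amino acids, and genes of stress in the endoplasmic reticulum (ER). Of these, 38 were read by an array probe set annotated to that symbol alone, out of 18417 genes read in this way. CBS, an enzyme of the transsulfuration pathway, was not analysed here. The 38 genes comprise 9 regulators of the ATF4 branch, 5 ATF4 targets with roles in stress adaptation, 9 enzymes that make serine, asparagine, cysteine and one-carbon units, 7 amino acid transporters and 8 ER stress genes.

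In the integrated stress response, kinases that sense a lack of amino acids, unfolded protein, viral RNA or a lack of heme phosphorylate the translation factor eIF2, which lowers protein synthesis while the mRNA for the transcription factor ATF4 is translated more. ATF4 then raises the transcription of genes that supply amino acids and charged tRNA, and of DDIT3, which encodes the transcription factor CHOP. The unfolded protein response of the ER shares the eIF2 kinase PERK with this pathway and adds the sensors IRE1, which splices XBP1 mRNA, and ATF6, which together raise ER chaperones and degradation factors. Because ATF4 is controlled largely in translation and XBP1 by splicing, an array value per gene reads the amount of their mRNA and neither their protein nor the spliced form.

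The study asked which genes PKCδ regulates in non-small cell lung cancer (NSCLC) cells with mutant K-ras. Its cells were 4 established human lines, H2009 and H441, which the study classes as K-ras dependent, and A549 and H460, which it classes as K-ras independent. Total RNA was read on Affymetrix human gene arrays as a log2 value for each probe set, with 3 biological replicates per line and shRNA, which gives 8 groups and 24 arrays. In each line, cells that stably expressed δ193, an shRNA against the coding region of the PKCδ mRNA delivered by lentivirus, were compared with cells of the same line that expressed a scrambled shRNA (δscr, labelled Scrambled). All groups thus carried a lentiviral shRNA, and no untransduced cells were on the arrays. Only 1 PKCδ shRNA was on the arrays, so that depletion of PKCδ and any action of the hairpin elsewhere cannot be told apart, and each line is 1 tumor line that stands for itself.

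PRKCD, which encodes PKCδ, was lower on every δ193 array than on every δscr array of its line, with a log2 change of -2.25 for H2009, -2.40 for H441, -1.26 for A549 and -2.03 for H460. KRT8, an epithelial keratin, had group means from 11.74 to 12.55, and 6 of 7 epithelial genes lay above the median gene in their mean over all arrays. The lines differed widely in such genes, however. The δscr mean of EPCAM was 11.20 in H2009 and 4.71 to 5.89 in the other lines, and that of CDH1 (E-cadherin) was 11.23 in H2009, 8.73 in A549, 6.41 in H441 and 5.60 in H460, where the array medians over all genes were 5.69 to 5.80. All 4 mesenchymal genes lay above the median gene, with VIM (vimentin) at 11.01. None of the 5 lung lineage genes measured lay above it, and of 5 immune genes only CD68, which other cells express too, did, with the leukocyte gene PTPRC at 2.74. Replicate arrays correlated at 0.9918 or more in 7 groups. In the remaining one, H441 δ193, the lowest correlation was 0.9819. The residual variance of H441, taken over its δscr and δ193 arrays, was 2.44 times the median of H2009, A549 and H460, and the median SD of the 38 genes in H441 was 0.46 for δ193 and 0.11 for δscr. This spread bears on many of the values below, so the 3 δ193 arrays of H441 are given one by one for the main results.

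In the main fit, which pools the spread of all arrays, the stress response genes called with PKCδ depletion were all higher. Most of these calls were in H441, which had the fewest calls when each line was fitted alone. A gene was called when limma gave an adjusted p under 0.05 over all genes and the log2 change was at least 0.32 in size, the fold threshold of the study. In H441, 20 of the 38 genes (52.6%) were called, all higher, where 14.3% of all genes were called and 7.09% were called higher. In A549, 6 genes (15.8%) were called, all higher, against 4.63% of all genes and 2.05% called higher. H2009 had 4 called genes (10.5%), again higher, where the shares over all genes were 4.91% and 2.66%. H460 had 2 (5.26%), both higher, where 5.45% of all genes were called and 2.01% were called higher, so that the share called there was close to that of all genes. The median log2 change of the 38 genes was 0.51 in H441, 0.20 in both H2009 and A549, and 0.00 in H460, where 19 genes lay above 0 and 19 below, and the median over all genes lay between 0.00 and 0.01 in each line.

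Over the 4 lines, 23 of the 38 genes (60.5%) were called in at least 1 line, against 22.5% of all genes. There were 6 called in at least 2 lines, TRIB3, STC2, PHGDH, ALDH1L2, SLC1A5 and CREB3L2, where 5.42% of all genes were. PHGDH, ALDH1L2 and SLC1A5 were called in 3 lines, the same ones each time, H2009, H441 and A549, where 1.21% of all genes reached 3 lines. None was called in all 4 lines. The change lay above 0 in H2009, H441 and A549 for 25 genes, of which 13 lay below 0 in H460.

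Arrays that did not overlap were common as well. In H2009, 19 of the 38 genes were higher on all 3 δ193 arrays than on any δscr array, against 13.8% of all genes. The count was 18 in H441, where it was 10.7% of all genes, 19 in A549 (12.4%) and 11 in H460 (16.1%). In H460 a further 11 genes were lower on every δ193 array, none of them called, where 18.1% of all genes were lower in this way. Of the genes called in H441, 13 had arrays that did not overlap and 7 had arrays that did. In the other lines no called gene had arrays that overlapped.

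**Figure D1:**
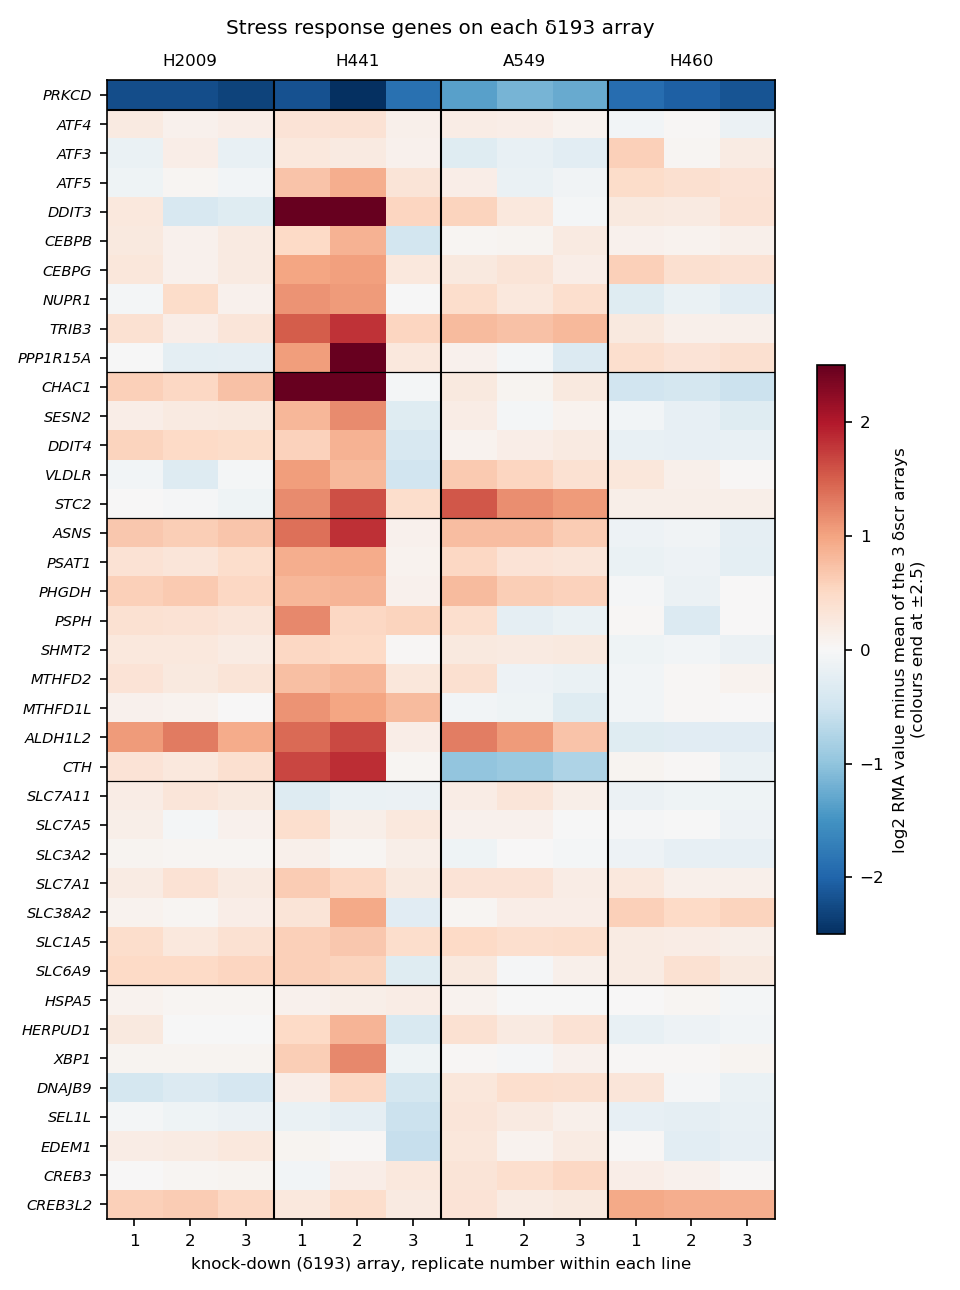
PRKCD and the 38 stress response genes (rows, in their groups) on each of the 12 δ193 arrays (columns, by line and replicate), as the log2 value minus the mean of the 3 δscr arrays of the line, with red higher and blue lower and colors that end at 2.5. Replicates 1 and 2 of H441 are red for most genes, with medians of 0.62 and 0.84, while replicate 3 of H441 is pale, with a median of 0.11.

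The 3 δ193 arrays of H441 did not move together. Relative to the mean of the δscr arrays, the median change of the 38 genes was 0.62 on replicate 1, 0.84 on replicate 2 and 0.11 on replicate 3. The number of genes at least 0.32 above δscr was 28, 30 and 7 on these arrays. Over all genes, 17.4% were at least 0.32 above δscr on replicate 3, against 12.7% and 13.9% on replicates 1 and 2. In a fit that weights arrays by how closely they follow their group, the weights of replicates 1, 2 and 3 were 2.28, 0.23 and 0.16. Replicate 2 was thus weighted low as well. Whether the arrays differ in quality or in response was not tested. PRKCD was at -1.85 relative to δscr on replicate 3 and at -2.17 and -3.18 on the other arrays. In the other lines the medians of the 3 δ193 arrays lay within 0.17 to 0.21 in H2009, 0.18 to 0.27 in A549 and 0.00 to 0.03 in H460.

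When arrays were left out one at a time, H441 δ193 replicate 3 moved the calls in H441 most. Without it 29 of the 38 genes (76.3%) were called in H441, all higher, where 16.7% of all genes were called. Without replicate 1, 17 were called higher and 1 lower (14.9% of all genes called), and without replicate 2, 18 higher and 1 lower (15.8%). The gene called lower in both cases was SEL1L, an adaptor of ER-associated degradation. In a fit that kept only replicate 3 of H441 δ193, which is then assumed to vary like the other groups, 9 genes (23.7%) were called, 4 higher and 5 lower, which was close to the 21.5% called of all genes. The 4 called higher were TRIB3, PSPH, MTHFD1L and SLC1A5, which were also called with all arrays. With H441 fitted alone on its own 6 arrays, 2 genes were called, TRIB3 (adjusted p = 0.0382) and MTHFD1L (0.00712). In the main fit, the SEs and p-values of H441 rest on a spread pooled over all groups and not on that of its own arrays. The spread of H441 also entered the calls of the other lines, since all arrays shared an estimate of it. Without the 6 H441 arrays, 10 genes were called in H2009 (9 higher, 1 lower), 12 in A549 (11 higher, 1 lower) and 6 in H460 (5 higher, 1 lower). For the fits with H441 alone and without it, shares over all genes are not given, so these counts are not set against all genes. H441 thus had the most calls with the pooled spread, and the fewest of the lines when each was fitted alone on its own arrays. Why the δ193 arrays of H441 spread more was not tested.

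**Figure D2:**
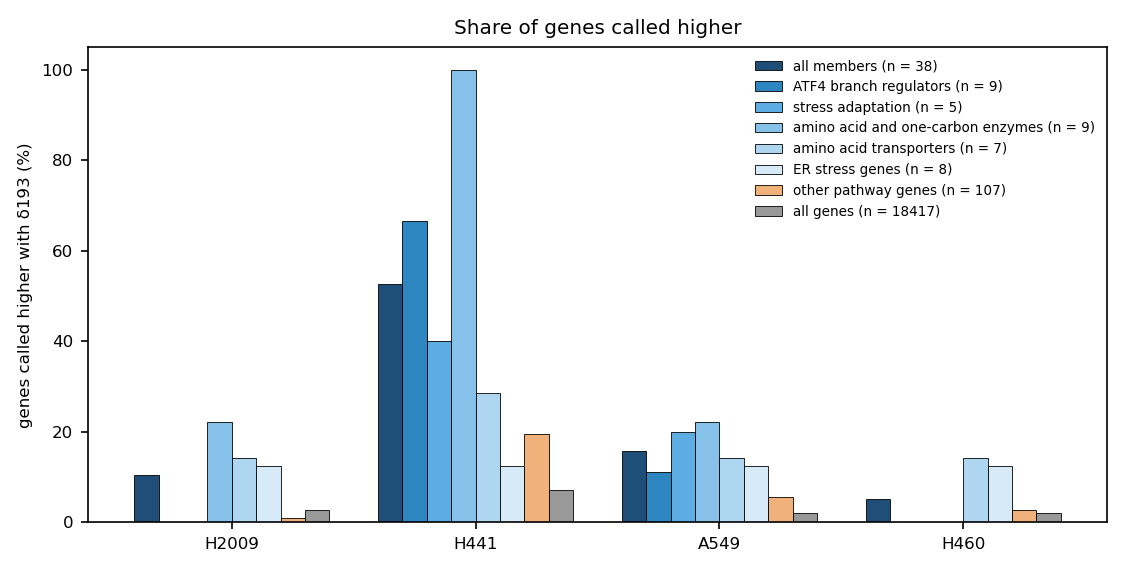
Share of genes called higher with δ193 in each line (vertical axis, percent), for the 38 stress response genes, their 5 groups, 107 further genes of the same pathways and all 18417 genes. In H441 the bar of the amino acid and one-carbon enzymes reaches 100% and that of all genes 7.09%.

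ATF4 and its partners bind the C/EBP-ATF response element, for which the letters TGATGNAA were searched on both strands in the 250 bases before the start site of each gene in RefSeq (assembly GRCh38.p14). Of the 38 genes, 33 had a sequence there, and 7 of these (21.2%) held the letters, against 3.12% of the 14239 genes of the arrays that had one. The 7 genes were ASNS, ATF3, CEBPG, CHAC1, HERPUD1, MTHFD1L and SLC1A5. The element of the 5 that were called in H441 is shown in capitals, 5′ to 3′ on the strand of the gene, with 20 bases on either side. In CHAC1 it lies on the opposite strand and so reads TTGCATCA.
ASNS (chr7:97872449-97872496, minus strand): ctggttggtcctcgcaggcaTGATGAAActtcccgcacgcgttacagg
CEBPG (chr19:33374051-33374098, plus strand): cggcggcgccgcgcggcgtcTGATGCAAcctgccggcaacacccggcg
CHAC1 (chr15:40953242-40953289, plus strand): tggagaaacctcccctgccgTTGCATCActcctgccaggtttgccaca
MTHFD1L (chr6:150866337-150866384, plus strand): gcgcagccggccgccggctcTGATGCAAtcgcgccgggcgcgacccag
SLC1A5 (chr19:46784884-46784931, minus strand): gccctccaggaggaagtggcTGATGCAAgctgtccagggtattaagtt

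The ER stress response element, which joins CCAAT and CCACG across 9 bases and is bound by ATF6 and NF-Y, was found before 2 of the 33 genes, HSPA5 and XBP1 (6.06%), against 0.133% of the genes of the arrays. It is shown here in capitals because it is the textbook element of the ER branch, and HSPA5 was called in no line while XBP1 was called in H441.
HSPA5 (chr9:125241371-125241429, minus strand): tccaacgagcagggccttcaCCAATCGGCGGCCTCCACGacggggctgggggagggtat
XBP1 (chr22:28800583-28800641, minus strand): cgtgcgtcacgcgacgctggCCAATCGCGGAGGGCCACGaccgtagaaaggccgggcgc
The XBP1 element TGACGTGG was in none of the 33 windows (0.906% of the genes of the arrays), and the cAMP response element TGACGTCA was in those of CREB3L2 and PPP1R15A (6.06% against 2.83%). These are matches of letters in a short window and not sites shown to be bound. The genes were picked by name as known ATF4 targets and ER stress genes, so higher shares than over all genes follow in part from that choice.

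Among the regulators of the ATF4 branch, 6 of 9 were called in H441, namely DDIT3, CEBPG, TRIB3, PPP1R15A, ATF5 and NUPR1. A549 had 1, TRIB3, and H2009 and H460 none. The median log2 change of the 9 genes was 0.73 in H441, 0.17 in H2009, 0.15 in A549 and 0.28 in H460. ATF4 itself was called in no line.

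ATF4 had δscr means from 9.62 in A549 to 10.49 in H441. Its log2 change was 0.28 in H441 (adjusted p = 0.0157), 0.17 in H2009, 0.15 in A549 and -0.06 in H460. The 3 δ193 arrays lay above the δscr arrays in H2009, H441 and A549, but each of these changes was smaller than 0.32. A second probe set of ATF4 gave changes of 0.21, 0.08, 0.12 and 0.11 in the same order. The order of the lines in δscr cells was not the same on that probe set, where H441 was lowest at 6.58 and A549 highest at 8.55, with 7.42 in H2009 and 8.13 in H460.

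DDIT3 (CHOP), which in prolonged stress promotes cell death, had the largest rise of the set. In H441 it read 6.50, 6.78 and 6.48 with δscr and 9.28, 10.05 and 7.13 with δ193. All 3 δ193 arrays lay above the δscr arrays, replicate 3 by much less than the others. The log2 change was 2.24 (4.72-fold, SE 0.40, adjusted p = 0.00036 from limma). In H2009 the arrays overlapped, with 7.14, 6.97 and 6.72 for δscr and 7.20, 6.54 and 6.64 for δ193. A549 and H460 had changes of 0.26 and 0.28, which did not pass the test. Changes in H441 exceeded those of each other line, by 2.39 over H2009 (adjusted p = 0.0107), 1.98 over A549 (0.0275) and 1.96 over H460 (0.0456).

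TRIB3, a pseudokinase that CHOP and ATF4 induce and that dampens their activity, was called in H441 and A549. In H441 it read 7.87, 8.09 and 8.0 with δscr and 9.50, 9.80 and 8.52 with δ193, a log2 change of 1.29 (2.44-fold, SE 0.18, adjusted p = 2.89e-05). In A549 the values were 7.27, 7.13 and 7.15 with δscr and 7.97, 7.92 and 8.0 with δ193, a change of 0.78 (1.72-fold, adjusted p = 0.0107). In both lines the groups were apart on all arrays. H2009 and H460 also had every δ193 array above every δscr array, with changes of 0.28 and 0.17 that were not called. The change in H441 exceeded that in H2009 by 1.01 (adjusted p = 0.0174) and that in H460 by 1.12 (0.0131), and its difference from A549, 0.51 (95% confidence interval -0.02 to 1.04), was not called.

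The other regulators that were called were called in H441 alone. CEBPG, a partner of ATF4 in binding DNA, read 7.22, 7.04 and 7.17 with δscr and 8.13, 8.17 and 7.40 with δ193 there, a log2 change of 0.75 (adjusted p = 0.000458). It was higher on every δ193 array of the other lines too, by 0.21 in H2009, 0.24 in A549 and 0.45 in H460, none of them called. PPP1R15A (GADD34), which returns eIF2 to its unphosphorylated state, rose by 1.36 in H441 (SE 0.33), with 6.22, 5.89 and 5.98 for δscr and 7.07, 8.78 and 6.30 for δ193. A single array, replicate 2, carried most of this rise.

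ATF5, a transcription factor related to ATF4, rose by 0.65 in H441 and NUPR1, a small chromatin protein induced by stress, by 0.73, and for both the δ193 and δscr arrays overlapped. ATF3 and CEBPB, transcription factors of the same family, were called in no line. ATF3 was the lowest of the uncalled genes, at means of 3.78 to 4.57 in δscr cells, with changes between -0.25 and 0.28. CEBPB changed by 0.30 in H441, where its δ193 arrays read 9.17, 9.54 and 8.21 against 8.90, 8.67 and 8.46, and by 0.11 to 0.19 in the other lines.

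**Figure D3:**
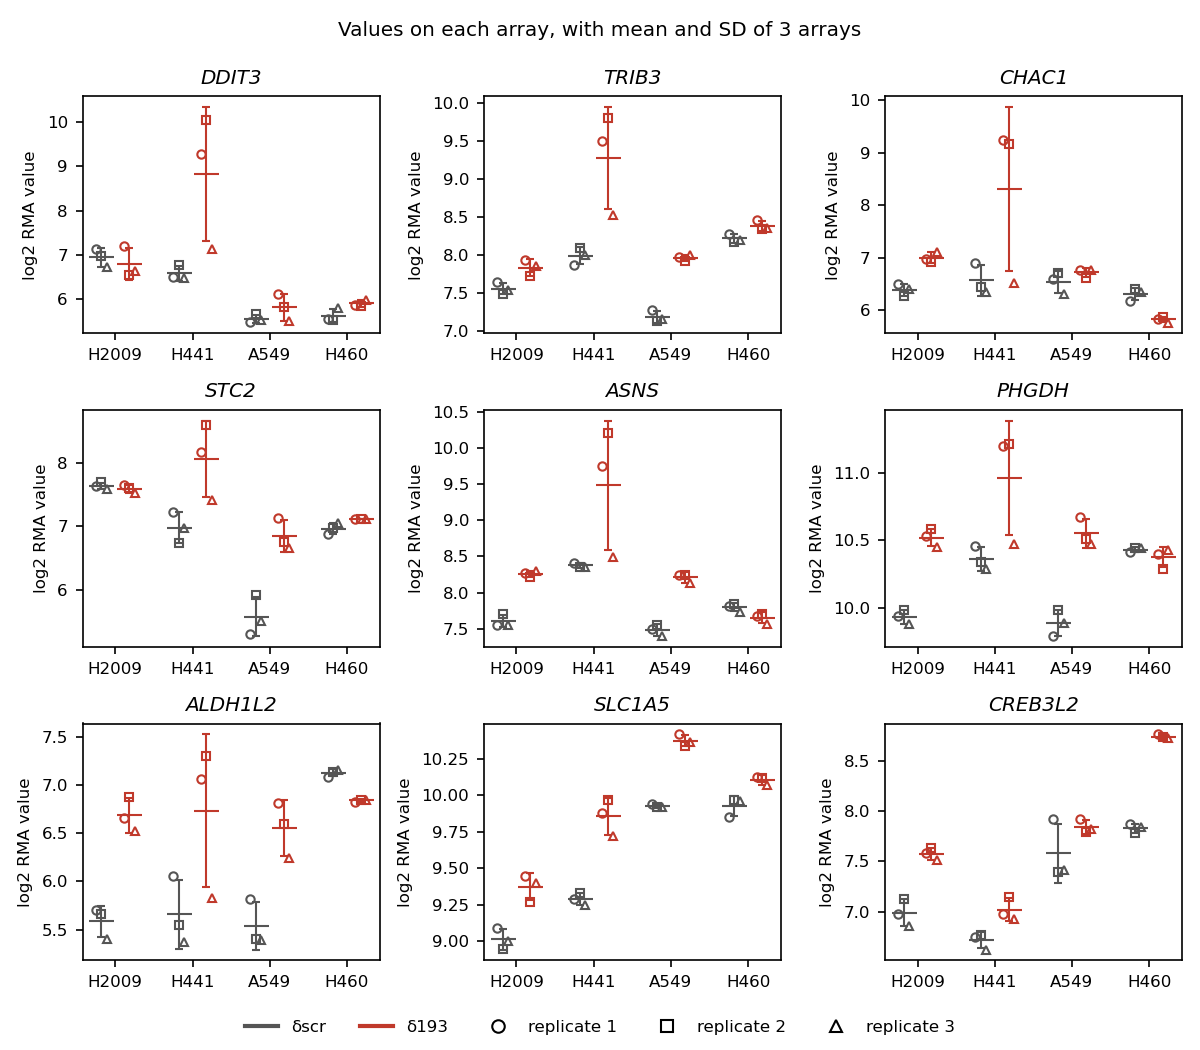
Log2 values of 9 stress response genes on each of the 24 arrays (vertical axis, on a scale of its own in each panel), by line, with δscr in gray and δ193 in red, symbols for the replicate number and bars for the mean and SD of 3 arrays. In H441 the triangle of δ193 replicate 3 lies below the circle and the square in each panel, at 7.13 against 9.28 and 10.05 for DDIT3.

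ATF4 targets with roles in stress adaptation were called in H441 (CHAC1 and STC2) and in A549 (STC2). CHAC1, which cleaves glutathione, read 6.90, 6.44 and 6.35 with δscr and 9.24, 9.17 and 6.51 with δ193 in H441. The δ193 array of replicate 3 thus lay among the δscr arrays while the others lay far above them. The log2 change was 1.74 (SE 0.40, adjusted p = 0.00348) with all arrays and -0.06 with only replicate 3. In H2009, CHAC1 was 0.62 higher on non-overlapping arrays, which was not called (adjusted p = 0.503), and in H460 it was 0.48 lower, with δ193 at 5.83, 5.87 and 5.76 against 6.17, 6.40 and 6.34, which was not called either.

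STC2, a secreted glycoprotein of the stanniocalcin family, had the largest rise in A549. It read 5.32, 5.92 and 5.52 with δscr and 7.13, 6.75 and 6.66 with δ193 there, a log2 change of 1.26 (2.39-fold, SE 0.20, adjusted p = 0.000239). In H441 it read 7.23, 6.74 and 6.97 with δscr and 8.17, 8.59 and 7.41 with δ193, a change of 1.08 (2.11-fold, adjusted p = 0.000453). The groups were apart in both lines. In H2009 and H460 the changes were -0.05 and 0.15. A549 differed from H2009 by 1.31 (adjusted p = 0.00775) and from H460 by 1.11 (0.0192), and A549 and H441 differed by 0.18 (95% confidence interval of H441 minus A549 -0.76 to 0.39). A549 began from the lowest δscr level of the 4 lines, 5.59, and reached 6.85 with δ193, against 6.96 in H460 δscr cells.

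SESN2, an inhibitor of mTORC1 signaling, DDIT4 (REDD1), another such inhibitor, and VLDLR, a lipoprotein receptor, were called in no line. In H441 each was above the δscr mean on δ193 replicates 1 and 2 and below it on replicate 3, as with DDIT4 at 10.81, 11.11 and 9.83 against 10.45, 10.23 and 10.03. DDIT4 was 0.50 higher in H2009 (adjusted p = 0.138) and 0.20 lower in H460, on arrays that did not overlap in either line. All 5 genes of this group were called in H441 when replicate 3 was left out.

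The enzymes of amino acid and one-carbon synthesis were the group with most calls. In H441 all 9 were called higher, with log2 changes from 0.34 for SHMT2 to 1.19 for CTH and a median of 0.76. The median was 0.35 in H2009, 0.24 in A549 and -0.10 in H460, and PHGDH and ALDH1L2 were the called genes in both H2009 and A549. In H460 none was called and 8 of the 9 changes lay below 0. When H441 δ193 replicate 1 or replicate 2 was left out, 8 of the 9 were called in H441, and 2, PSPH and MTHFD1L, with only replicate 3.

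PHGDH catalyzes the first step of serine synthesis from glucose. In H2009 it read 9.94, 9.98 and 9.88 with δscr and 10.53, 10.58 and 10.45 with δ193, a log2 change of 0.59 (1.5-fold, SE 0.13, adjusted p = 0.00704). A549 gave nearly the same picture, with 9.79, 9.98 and 9.89 for δscr, 10.67, 10.51 and 10.47 for δ193 and a change of 0.66 (1.58-fold, adjusted p = 0.00238). In both lines all δ193 arrays lay well above the δscr arrays. H441 rose by 0.60 (adjusted p = 0.00223), with 10.46, 10.34 and 10.29 for δscr and 11.20, 11.21 and 10.47 for δ193, with replicate 3 just above the highest δscr array. In H460 the arrays overlapped, at 10.41, 10.44 and 10.44 with δscr and 10.40, 10.29 and 10.43 with δ193. The change in H460, -0.06, was smaller than that in H2009 by 0.64 (adjusted p = 0.0475), than that in H441 by 0.65 (0.0408) and than that in A549 by 0.72 (0.0222).

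The next enzymes of the serine pathway, PSAT1, a transaminase, and PSPH, the phosphatase of the last step, were called in H441. PSAT1 rose by 0.64 there (adjusted p = 0.00246) and was 0.37 higher in H2009 and 0.39 higher in A549, on arrays that did not overlap but without passing the test. PSPH rose by 0.76 in H441, with 6.32, 6.46 and 6.55 for δscr and 7.65, 6.96 and 7.0 for δ193, so that here replicate 3 rose with the others. Its change in A549 was 0.01. A second probe set of PSPH gave 0.75 in H441 and -0.14 in A549.

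Serine feeds mitochondrial one-carbon metabolism through SHMT2, MTHFD2 and MTHFD1L, and ALDH1L2 oxidizes the formyl group of its folates. ALDH1L2 was the called gene with the largest rise in H2009. It read 5.70, 5.66 and 5.40 there with δscr and 6.66, 6.88 and 6.52 with δ193, a log2 change of 1.10 (2.14-fold, SE 0.25, adjusted p = 0.00833). In A549 it read 5.82, 5.40 and 5.39 with δscr and 6.82, 6.60 and 6.24 with δ193, a change of 1.02 (2.02-fold, adjusted p = 0.0147). All δ193 arrays lay above the δscr arrays in these lines. In H441 the change was 1.08 (adjusted p = 0.00365), but δ193 replicate 3, at 5.83, lay within the δscr range of 5.37 to 6.06, while replicates 1 and 2 read 7.07 and 7.31. H460 had the highest δscr level, 7.13, and was lower on every δ193 array, at 6.83, 6.85 and 6.85, a change of -0.29 that was not called. The change in H460 differed from that in H2009 by 1.39 (adjusted p = 0.0226), from that in H441 by 1.37 (0.0257) and from that in A549 by 1.31 (0.0295).

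MTHFD1L, a formate-producing enzyme of mitochondria, was the enzyme whose rise in H441 was most even over the arrays. It read 7.49, 7.24 and 7.29 with δscr and 8.46, 8.33 and 8.13 with δ193, a log2 change of 0.97 (1.96-fold, SE 0.10, adjusted p = 5.59e-07). Its changes in H2009, A549 and H460 were 0.07, -0.16 and -0.01, and that in H441 exceeded each of them by 0.90 to 1.12 (adjusted p = 0.000338 or less). MTHFD2 and SHMT2 rose by 0.62 and 0.34 in H441 and were called in no other line. In H2009 their changes were 0.30 and 0.25, on arrays that did not overlap.

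ASNS, which makes asparagine, read 8.41, 8.36 and 8.36 with δscr and 9.75, 10.21 and 8.49 with δ193 in H441, a log2 change of 1.11 (2.16-fold, SE 0.23, adjusted p = 0.00145). Replicate 3 of δ193 was just above the δscr arrays and the others far above them. In H2009 it read 7.55, 7.70 and 7.56 with δscr and 8.27, 8.21 and 8.30 with δ193, and in A549 7.50, 7.56 and 7.40 against 8.25, 8.25 and 8.13. The groups did not overlap in either line, and the changes of 0.65 and 0.72 did not pass the test that pools the spread of all lines (adjusted p = 0.112 and 0.0748). In H460 it was lower on each δ193 array, by 0.15 on average.

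CTH, which makes cysteine from cystathionine, had changes of opposite sign in H441 and A549. In H441 it rose by 1.19 (SE 0.28, adjusted p = 0.00394), with 7.05, 6.91 and 6.62 for δscr and 8.53, 8.71 and 6.91 for δ193, where replicate 3 overlapped. In A549 every δ193 array was lower, at 7.25, 7.29 and 7.46 against 7.89, 8.29 and 8.50, a change of -0.89 that was not called (adjusted p = 0.0664). The changes in H441 and A549 differed by 2.08 (95% confidence interval 1.27 to 2.89, adjusted p = 0.00119). Without H441 δ193 replicates 1 and 2 the change in H441 was 0.05.

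**Figure D4:**
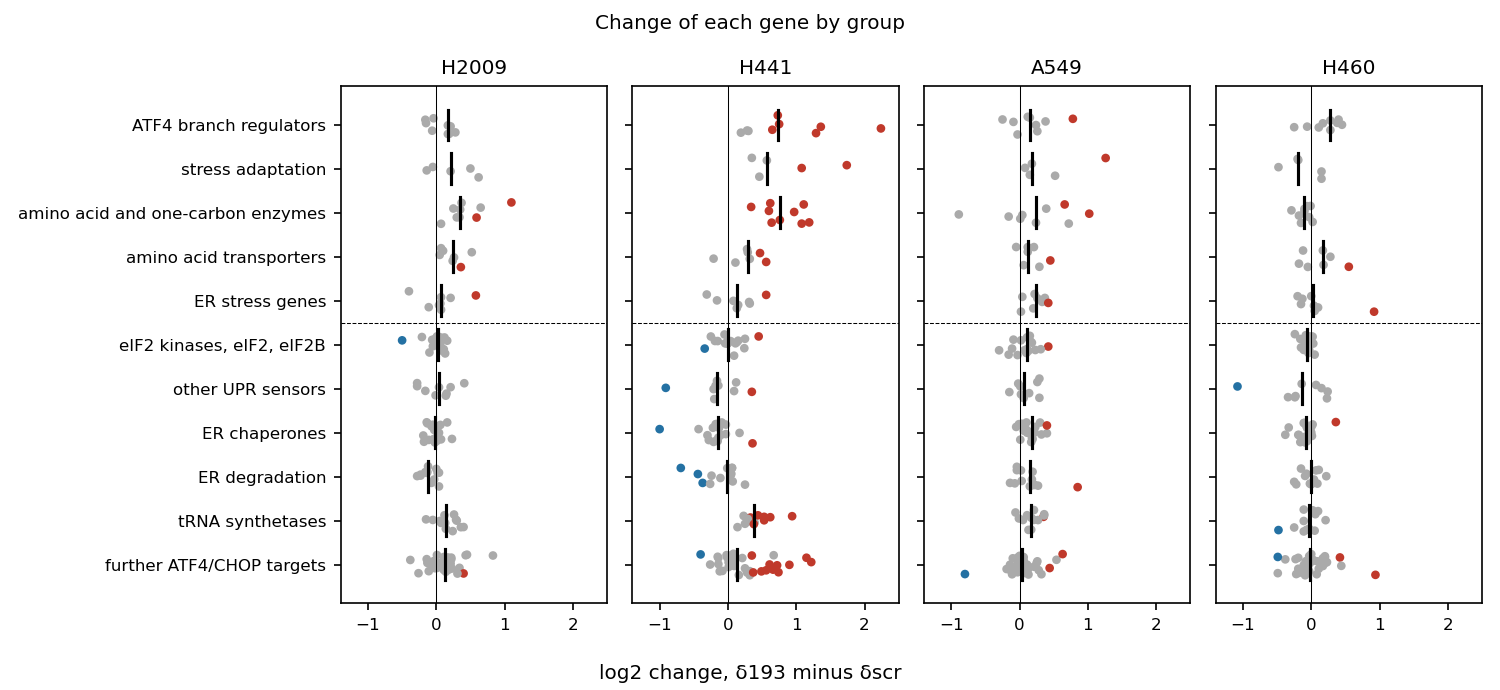
Log2 change of each gene with δ193 (horizontal axis), by gene group (rows) and line (panels), with genes called higher in red, called lower in blue, the others in gray, and a bar at the median of the group. The 5 upper rows hold the 38 stress response genes and the 6 lower rows 107 further pathway genes. In H441 every point of the amino acid and one-carbon enzymes is red, and 7 of 13 tRNA synthetases are.

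Of the 7 amino acid transporters, 2 were called in H441 (SLC7A1 and SLC1A5) and 1 in each other line, SLC1A5 in H2009 and A549 and SLC38A2 in H460. SLC1A5 (ASCT2) imports glutamine and other neutral amino acids. In H2009 it read 9.09, 8.95 and 9.0 with δscr and 9.45, 9.27 and 9.40 with δ193, a log2 change of 0.36 (1.28-fold, SE 0.08, adjusted p = 0.00609). In A549 it read 9.94, 9.92 and 9.92 with δscr and 10.42, 10.34 and 10.37 with δ193, a change of 0.45 (1.36-fold, adjusted p = 0.000625). In both lines the arrays of each group lay close together and the groups were apart.

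In H441, SLC1A5 read 9.29, 9.33 and 9.25 with δscr and 9.88, 9.97 and 9.72 with δ193, a change of 0.56 (1.48-fold, adjusted p = 1.87e-05), to which all 3 arrays contributed. In H460 it was higher on every δ193 array, by 0.18, and was not called. Its changes did not differ among the lines by the F test (adjusted p = 0.080), and a second, dimmer probe set gave 0.18, 0.53, 0.55 and 0.24 in H2009, H441, A549 and H460.

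SLC38A2 (SNAT2), a sodium-coupled importer of small neutral amino acids, rose in H460 from 10.27, 10.25 and 10.24 to 10.85, 10.76 and 10.81, a change of 0.55 (1.46-fold, adjusted p = 0.0498). The groups were far apart, but the adjusted p lay close to the threshold, and leaving out any one array other than a δ193 array of H441 ended the call. In H441, SLC38A2 read 10.80, 11.43 and 10.20 against 10.56, 10.49 and 10.41, an overlap. SLC7A1, an importer of arginine and lysine, rose by 0.47 in H441 and was 0.26 higher in H2009 and 0.29 higher in A549, not called.

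SLC7A11, the cystine importer of system xc-, is a known ATF4 and NRF2 target. It was called in no line, but its δ193 arrays lay above the δscr arrays in H2009 and A549, by 0.24 and 0.21, and below them in H441 and H460, by 0.21 and 0.12. In H2009 it read 10.41, 10.52 and 10.45 with δscr and 10.65, 10.76 and 10.70 with δ193, and in H441 11.33, 11.29 and 11.32 against 10.99, 11.14 and 11.17. The changes in H2009 and H441 differed by 0.45 (95% confidence interval 0.24 to 0.66, adjusted p = 0.00732). Its heavy chain SLC3A2, the partner SLC7A5, which imports leucine, and the glycine transporter SLC6A9 were called in no line. SLC6A9 was 0.52 higher in H2009 (adjusted p = 0.0758), at 5.97, 5.97 and 6.00 against 5.48, 5.38 and 5.53.

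Of the 8 ER stress genes, 1 was called in each line, and the median changes were 0.24 in A549, 0.14 in H441, 0.07 in H2009 and 0.02 in H460. HSPA5 (BiP), the main chaperone of the ER lumen and the highest uncalled gene of the set, had δscr means of 11.46 to 11.72 and changes between 0.00 in H460 and 0.15 in H441. The 95% confidence interval in H441 was 0.01 to 0.30. XBP1 rose by 0.56 in H441 (adjusted p = 0.0292), with 9.15, 9.12 and 9.25 for δscr and 9.78, 10.37 and 9.06 for δ193, so that replicate 3 was below the δscr arrays. With only that array its change was -0.11.

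CREB3L2 and CREB3 encode membrane-bound transcription factors that are cleaved in the Golgi, as ATF6 is. CREB3L2 was called in H2009 and H460. In H460 it read 7.87, 7.78 and 7.84 with δscr and 8.77, 8.74 and 8.73 with δ193, a log2 change of 0.92 (1.89-fold, SE 0.11, adjusted p = 4.68e-06), the largest called rise of the set in that line. In H2009 it read 6.98, 7.13 and 6.86 with δscr and 7.58, 7.63 and 7.51 with δ193, a change of 0.58 (1.5-fold, adjusted p = 0.00162). The arrays were apart in both lines and in H441, where the change was 0.31 (adjusted p = 0.0518), and overlapped in A549. The rise in H460 exceeded the change in H441 by 0.61 (adjusted p = 0.023) and that in A549 by 0.65 (0.0124). CREB3 rose in A549 from 9.40, 9.43 and 9.48 to 9.76, 9.86 and 9.95, a change of 0.42 (adjusted p = 0.0038). The study, with Student's t-test, lists CREB3 as raised in both A549 and H460. Here its change lay above 0 in all 4 lines but was called in A549 alone. The mean change in H2009 and H441 minus that in A549 and H460, -0.18, was not called.

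HERPUD1 and SEL1L, which act in ER-associated degradation, EDEM1, which sorts misfolded glycoproteins for it, and DNAJB9, a co-chaperone of BiP, were called in no line. SEL1L was lower on every δ193 array in H441 and H460, by 0.31 and 0.20, and higher in A549, by 0.22. Its changes in H441 and A549 differed by 0.54 (adjusted p = 0.00774). DNAJB9 was 0.40 lower in H2009, at 5.25, 5.36 and 5.28 against 5.92, 5.62 and 5.54 (adjusted p = 0.207), and 0.37 higher in A549 (0.263).

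Taken as the mean of the 4 lines, 9 of the 38 genes (23.7%) were called, all higher, against 3.63% of all genes. They were DDIT3, CEBPG, TRIB3, STC2, ASNS, PHGDH, ALDH1L2, SLC1A5 and CREB3L2, with mean log2 changes from 0.39 for SLC1A5 to 0.72 for ALDH1L2. The median of the 38 mean changes was 0.25, and that of all genes 0.01. The count was 17 without H441 δ193 replicate 3, a fit for which the share of all genes is not given here.

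The change differed among the lines for 14 of the 38 genes (36.8%) by an F test, against 14.1% of all genes, and for 30 without H441 δ193 replicate 3 or 23 with only that replicate of its group. Without H460 δ193 replicate 2 the count was 9. For the fits with arrays left out, here and for the classes below, the shares of all genes are not given. Between the K-ras classes, the mean change in H2009 and H441 minus that in A549 and H460 was called for 3 genes (7.89%), against 4.65% of all genes. These were CTH (1.22, 95% confidence interval 0.65 to 1.80, adjusted p = 0.0106), MTHFD1L (0.60, 0.39 to 0.81, adjusted p = 0.00108) and PSPH (0.60, 0.28 to 0.93, adjusted p = 0.0256). For MTHFD1L the change in H2009, the other K-ras dependent line, was 0.07, and for CTH the difference rested on the rise in H441 and the lower values in A549. Each class holds 2 lines, so that this compares these lines and not the classes in general. Without H441 δ193 replicate 3 the count was 14 and with only that replicate 9, of which 5 were lower in the dependent lines.

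δscr cells of the 4 lines differed in their levels of these genes before any depletion of PKCδ. The δscr level differed among the lines for 35 of the 38 genes (92.1%), against 73.7% of all genes, and CHAC1, MTHFD2 and SEL1L were the exceptions. Between H2009 and H441, 22 of the 38 genes differed (49.3% of all genes). Between H2009 and A549 it was 20 (41.4%), between H2009 and H460 25 (35.5%), between H441 and A549 26 (48.4%), between H441 and H460 16 (45.4%), and between A549 and H460 21 (38.9%). A549 was the highest line for 16 of the genes and the lowest for 12.

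The largest range among δscr cells was that of PSPH. Its means were 8.76 in A549, 7.84 in H2009, 6.75 in H460 and 6.44 in H441, a 4.99-fold range in which H460 and H441 did not differ beyond their spread (adjusted p = 0.10). CREB3 was highest in A549 at 9.44, followed by 8.22 in H460, 7.96 in H2009 and 7.35 in H441, where H460 and H2009 differed by less than 0.32 and were not called apart. CTH was highest in A549, at 8.23, and the other lines, at 6.86 in H441, 6.72 in H460 and 6.33 in H2009, did not differ from their neighbors.

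STC2 was lowest in A549, at 5.59, against 6.96 in H460 and 6.98 in H441, which did not differ, and 7.64 in H2009. ALDH1L2 was highest in H460, at 7.13, while H441, H2009 and A549 lay at 5.66, 5.59 and 5.54 without differing. With δ193 the latter rose to 6.74, 6.68 and 6.55, still below the δscr mean of H460. CEBPG was ordered H2009 (8.59), A549 (7.84), H441 (7.14) and H460 (6.74), with each step called. For ATF4 the probe sets disagreed. On the one used for the tests it was higher in H441 than in H460, the next line, by 0.62 (adjusted p = 4.32e-07), while on the second H441 was the lowest line, so that no order of the lines is given for this gene.

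**Figure D5:**
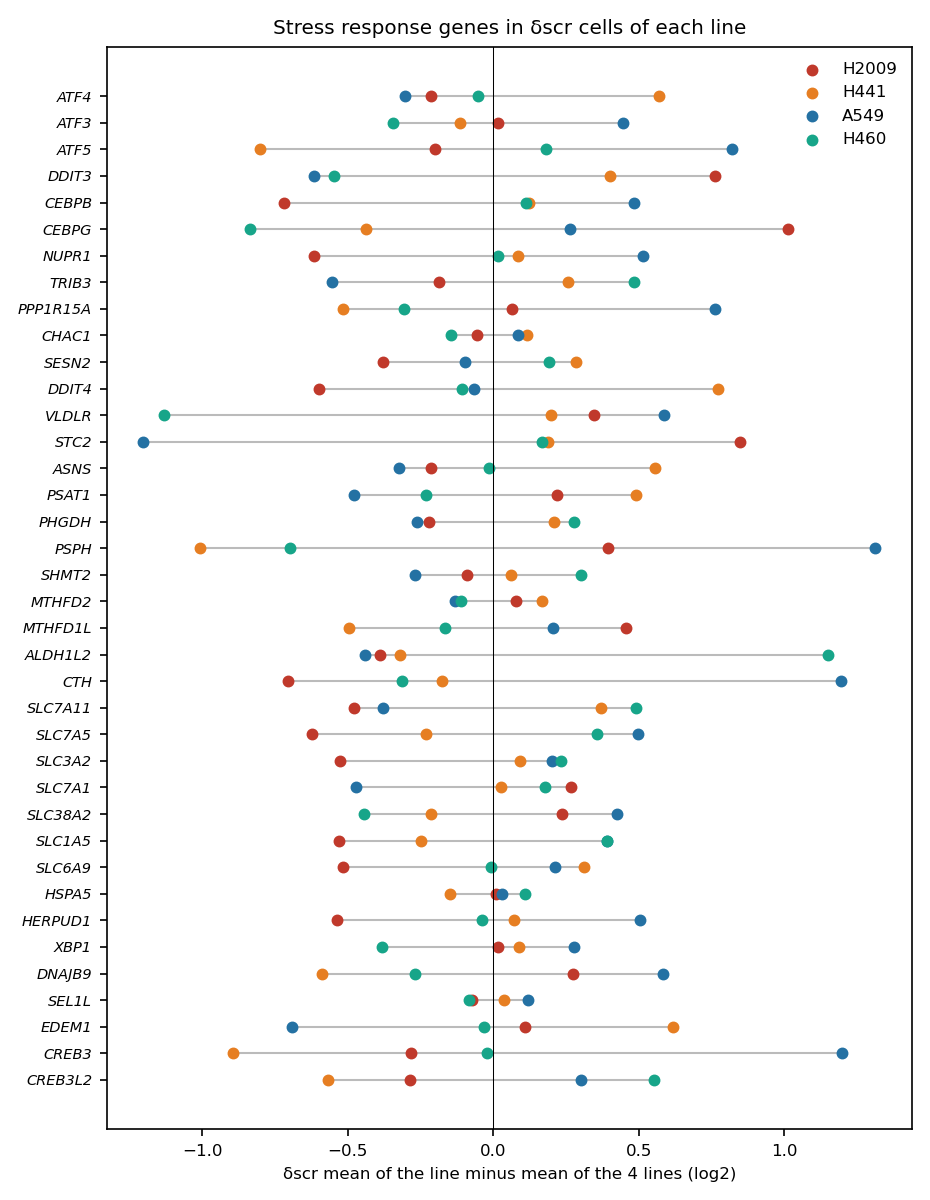
δscr mean of each of the 38 genes in each line, minus the mean of the 4 lines (horizontal axis, log2), 1 row per gene and 1 color per line. PSPH spans the widest range, 2.32, with A549 at the right end, and CHAC1, MTHFD2, HSPA5 and SEL1L span 0.30 or less.

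Further genes of the same pathways were taken from a list of 111, of which 107 were measured. A smaller share of them than of the 38 was called in H2009, H441 and A549. The counts were 2 in H2009 (1.87%, 1 higher, 1 lower), 28 in H441 (26.2%, 21 higher, 7 lower), 7 in A549 (6.54%, 6 higher, 1 lower) and 6 in H460 (5.61%, 3 higher, 3 lower). The spread of the H441 δ193 arrays bears on these genes too. Their median SD in H441 was 0.20 with δ193 and 0.09 with δscr, and the largest 1.04 and 0.35. Values on single arrays are not given for them. The aminoacyl-tRNA synthetases and the tRNA exporter XPOT, which are known ATF4 targets, followed the enzymes in H441, where 7 of 13 were called higher with a median of 0.38, and WARS1 rose by 0.94. In the other lines at most 1 of them was called, higher in A549 and lower in H460 (AARS1). ER chaperones, in contrast, had 2 of 19 called in H441 (10.5%, less than the 14.3% of all genes). These were CRELD1, lower by 1.0, and HSPA13, higher by 0.36, and the median of the group was -0.15.

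Of the 17 genes for eIF2 kinases, eIF2, its exchange factor and its phosphatases, EIF2AK3 (PERK) rose by 0.42 in A549 and EIF2B3, a subunit of the exchange factor, by 0.45 in H441, while DNAJC3, an inhibitor of the eIF2 kinases, fell by 0.50 in H2009 and by 0.34 in H441. SLC43A1, a transporter of branched-chain amino acids, rose by 0.90 in H441 and 0.63 in A549. EDEM3, a mannosidase of ER-associated degradation, rose by 0.85 in A549 and fell by 0.44 in H441. The largest changes in each line were those of GDF15, a secreted stress factor (0.83 in H2009, not called), the transcription factor KLF4 (1.22 in H441), EDEM3 (in A549) and CREB3L3, a membrane-bound transcription factor of the CREB3 family (-1.08 in H460, adjusted p = 2.85e-06). In H460, GDF15 was called, with a rise of 0.94 (adjusted p = 0.0381).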

How the data were processed

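The authors normalized 24 Affymetrix Human Gene 1.0 ST arrays by RMA with Affymetrix Power Tools and deposited log2 values for 33252 transcript clusters. For the program and the annotation, versions were not given in the sources used here. RMA sets the array distributions equal, so a change shared by most genes would be lost. Array medians over genes lay between 5.69 and 5.80. A single symbol was listed for 19460 clusters, several for 1754 and none for 12038. For a gene with several clusters, that with the highest mean of all arrays stood for it, and 18417 genes remained.

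All arrays were fitted together in limma 3.58.1 (R 4.3.3), with 8 group coefficients, eBayes and Benjamini-Hochberg adjustment over all genes. Calls required an adjusted p under 0.05 with a log2 change of 0.32 or more in size, which is the fold in the methods of the study. F tests were called at an adjusted p under 0.05 alone. The scripts were tested on simulated data. No array was a copy of another (highest correlation 0.9977). With 3 arrays per group, the number of arrays limits the precision. SEs and p-values rest on a spread per gene pooled over the 8 groups, not on the arrays compared alone. The median SD of the stress response genes with δ193 was 0.46 in H441, 0.06 in H2009, 0.09 in A549 and 0.06 in H460. SEs and p-values given for H441 therefore understate the spread of its own δ193 arrays for many of these genes.

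The genes, the lists and the tests were chosen with earlier results of these data known. Genes were named by rule: PRKCD, genes of the set called in any line, with array values for those called in several lines or with the largest changes, the uncalled genes with the highest and lowest level, and the further pathway genes called in most lines or with the largest change in a line. Other genes named were chosen after their values were seen. The alternatives were the methods' own test, lines fitted alone, a trended and robust spread, array weights, equal array medians, only genes above the median, the mean over clusters, a replicate block, arrays left out, and no fold threshold. A fit without H441 δ193 replicates 1 and 2 and a replicate block within lines were added after seeing the data.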

Additional observations from a re-analysis of the deposited data

Results flagged for a closer look

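For 14 of the 38 genes the change with δ193 differed among the 4 lines by the F test (limma, adjusted p in parentheses). Among the regulators these were DDIT3 (0.0165) and TRIB3 (0.0112), and among the genes of stress adaptation CHAC1 (0.0412) and STC2 (0.00275). The enzymes were ASNS (0.0467), PSAT1 (0.0295), PHGDH (0.0213), PSPH (0.0285), MTHFD1L (2.74e-05), ALDH1L2 (0.0146) and CTH (0.00486). The others were the transporter SLC7A11 (0.0039) and the ER genes SEL1L (0.0216) and CREB3L2 (0.0129).

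In DDIT3, TRIB3, CHAC1, ASNS, PSAT1, PSPH, MTHFD1L and CTH the change was highest in H441, in STC2 in A549 and in CREB3L2 in H460. In PHGDH the changes were 0.59, 0.60 and 0.66 in H2009, H441 and A549 and -0.06 in H460, and in ALDH1L2 1.10, 1.08 and 1.02 against -0.29. In SLC7A11 all δ193 arrays lay above the δscr arrays in H2009 and A549 and below them in H441 and H460. The number of genes whose change differed among the lines was 30 without H441 δ193 replicate 3. The share of all genes in that fit is not given, so this count is not set against all genes. The part of that array in these differences was not tested.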

How the results depend on the processing

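Of the values of called genes under other settings, counted with those of the target PRKCD, 545 kept their direction and call, 99 lost the call and 3 changed sign. The 3 were NUPR1 (-0.01), CHAC1 (-0.06) and XBP1 (-0.11) in H441, in a fit without H441 δ193 replicates 1 and 2, chosen after seeing the data, in which the lone array is assumed to vary like the other groups. That fit called 9 genes in H441, a difference among the lines for 23 and between the classes for 9.

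Counts in this section are of the stress response genes, without the share of all genes called in the same setting. They show how the calls depend on the setting and do not compare the set with all genes. The methods' t-test without adjustment called 11 genes in H2009, 12 in A549, 8 in H441 and 6 in H460. After Benjamini-Hochberg it called 4 in H460, 2 in A549 and 0 in H441. With each line fitted alone the counts were 9 in H2009, 10 in A549, 2 in H441 and 6 in H460, and without the 6 H441 arrays 10 in H2009, 12 in A549 and 6 in H460. Array weights gave 9 in H2009, 13 in A549, 5 in H460, 15 for the mean of the lines, 32 for differences among the lines and 13 between the classes. With only genes above the median, 5 differed between the classes, and with no fold threshold 20 were called for the mean of the lines.

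Leaving out 1 array at a time gave 3 to 9 in H2009, 5 to 11 in A549, 18 to 29 in H441, 1 to 4 in H460, 8 to 17 for the mean, 9 to 30 among the lines, 2 to 14 between the classes and 33 to 37 for δscr levels, with the highest count in each case without H441 δ193 replicate 3. Of 12 pairs of arrays with the same replicate number, 2 had correlated deviations over 0.1 (range -0.085 to 0.284). Both were in H2009, at 0.284 and 0.16. The δscr array correlated best with the δ193 array of its own number in 6 cases. The main fit used no pairing. With the replicate block 1 gene was called in H460 and 5 between the classes, and in H2009, H441 and A549 4, 20 and 6. Equal array medians, the trended spread and the mean over clusters left each count within 1.5 times its value. Only 34 of the 38 genes had a mean above the median gene, and no background level was measured for the arrays.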
